A study of Homo sapiens with 4 samples.

Results

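The teneurins and their FLRT partners make up 7 of the 27011 genes in the deposited count table: the teneurin genes TENM1, TENM2, TENM3 and TENM4, and FLRT1, FLRT2 and FLRT3. They were taken by symbol, and all 7 were found. TENM1 had been picked out by the study as an up-regulated transcript for RT-qPCR, from the same comparison of Helz-null and WT cells that is described here. Its change is for that reason given as a description with no p-value. The other 6 genes were included as its paralogs and adhesion partners.

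RNA was measured by RNA-Seq in 2 libraries of WT HEK293T cells and 2 libraries of Helz-null HEK293T cells. The HEK293T line derives from human embryonic kidney and is long established. The Helz-null line was made from it with Cas9 and a guide RNA against helz, and carries a frameshifting deletion in that gene. HELZ is a putative RNA helicase with a zinc finger that the study links to mRNA decay. No treatment is listed, and the study calls its replicates biological. A single edited line stands for the genotype, so that in these libraries the edit and other differences between the lines cannot be told apart. Outside these libraries, the study measured tenm1 by RT-qPCR. It reported more tenm1 in Helz-null than in WT cells, and a partial return towards WT after transient expression of GFP-HELZ.

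Teneurins are very large type II transmembrane proteins of the cell surface, with a short intracellular domain and a long extracellular part of EGF-like repeats, a beta-propeller and a barrel of YD repeats. FLRTs are smaller type I membrane proteins with leucine-rich repeats and a fibronectin type III domain. Both bind latrophilins, adhesion G protein-coupled receptors on the opposing cell. FLRTs also bind the netrin receptors of the UNC5 family and interact with FGF receptors. In the nervous system these contacts are known for their part in axon guidance, cell migration and the matching of synaptic partners.

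Library totals ranged from 41745401 to 70464140 counts. HELZ, the edited gene, fell from 99.8 and 103.9 CPM in WT to 36.98 and 37.9 CPM in Helz-null cells. CPM are counts scaled to the total over the study's gene list, with TMM factors. All 7 listed markers of HEK293 cells (VIM, KRT8, KRT18, NEFL, NEFM, PAX2 and LHX1) exceeded 1 CPM in at least 1 library, and they summed to between 1516 and 1521 CPM in WT and between 1588 and 1608 CPM in Helz-null libraries. In a fit over the 16087 genes kept by the filterByExpr function of edgeR, 2 of these 7 markers were called up and 3 down. Of 11 markers of blood, endothelium, liver, glia and muscle, 1 exceeded 1 CPM in any library, and HBB and MYH1 had 0 counts throughout. These markers summed to between 2.12 and 2.33 CPM in WT and between 2.07 and 2.47 CPM in Helz-null libraries. In RNA from whole cultures, fewer cells that express a gene and less RNA per cell cannot be told apart.

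Only TENM1 and TENM3 were in the list of 10978 genes that the authors tested after requiring an FPKM above 2, a count scaled by gene length and library size. TENM4, FLRT1, FLRT2 and FLRT3 were tested here in this wider fit, which selects genes by their counts. TENM2 passed neither selection and is described by its counts. Tests were edgeR's quasi-likelihood test, with p-values adjusted over all genes of the fit, and SE stands for standard error. In the fit of the authors' list 29.4% of all genes were called at an FDR under 0.005, and in the wider fit 21.4% (9.83% up and 11.5% down). Of the 6 tested members, TENM1 and FLRT1 were higher and TENM3 was lower in Helz-null cells by that threshold. TENM1 counts in this tally only as the gene that led to the list.

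The genes differ widely in size. On GRCh37, the build named hg19 by the authors, TENM1 occupies bases 123509753 to 124338161 of chromosome X, minus strand, and spans 828.4 kb. TENM2 lies on chromosome 5 from 166406034 to 167691162 on the plus strand and is the longest of the 7, with 1285 kb. TENM3 lies on chromosome 4 from 183065140 to 183724177 on the plus strand, and TENM4 at bases 78363874 to 79152074 of chromosome 11, minus strand. Their coding sequences are spread over 27 to 31 exons. Each FLRT gene has its whole coding sequence in 1 exon. FLRT1 lies on chromosome 11 from 63803403 to 63886645 on the plus strand, FLRT2 on chromosome 14 from 85996488 to 86120772 on the plus strand, and FLRT3 at bases 14303631 to 14318260 of chromosome 20, minus strand.

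FLRT1 and FLRT3 share an arrangement. FLRT1 lies inside MACROD1 and FLRT3 inside MACROD2, each on the strand opposite to its host, and neither shares an exon base with the host in the annotation. The coding sequences of the teneurins were alike in 63.3% to 68.9% of aligned bases between any pair of paralogs. For the FLRTs this identity was 57.4% to 61.8%. The G and C content of the coding sequences ran from 43.5% in FLRT3 to 63.2% in FLRT1. TENM1, at 46.9%, had the lowest among the teneurins, and TENM4, at 56.3%, the highest.

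The RT-qPCR assay of the study read a stretch of TENM1 that is shown here because it sets what the assay can see. Both primers matched transcripts of TENM1 and of no other gene in the annotation. The product of 245 bases, chrX:123554371-123554615 of GRCh37 on the minus strand, lies wholly within exon 24 of the canonical transcript and within the coding sequence. It therefore spans no exon junction. It is given 5′ to 3′ in the direction of the gene, with the primer sites in capitals.
TENM1 product: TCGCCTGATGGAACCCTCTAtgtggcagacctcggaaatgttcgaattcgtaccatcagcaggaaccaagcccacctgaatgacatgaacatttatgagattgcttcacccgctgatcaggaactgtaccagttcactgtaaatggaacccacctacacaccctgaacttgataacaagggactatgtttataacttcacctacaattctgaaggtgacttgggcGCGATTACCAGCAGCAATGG

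The forward primer was also compared with the paralogs of TENM1. The sequences below are the closest ungapped matches in the canonical transcript of each paralog, with bases that differ from the primer in capitals. Between 5 and 6 of the 20 bases differed in the closest forward windows, and between 6 and 7 in the closest reverse windows. These windows need not be the corresponding sites. The reverse site starts at base 4732 of the TENM1 coding sequence, and the closest reverse windows at base 7066 in TENM2 and 95 in TENM4.
TENM1: tcgcctgatggaaccctcta
TENM2: GcTccAgatggTaccAtTta
TENM3: tcTccAgatggTacActGta
TENM4: CcCcctCaCggGaccctGta
The forward site starts at base 4507 of the TENM1 coding sequence, and the closest forward matches start at base 4654 in TENM2 and 4438 in TENM3. In TENM4 the window shown, 1 of 2 equally close, starts at base 268, a different part of the coding sequence.

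TENM1 more than doubled. It stood at 31.8 and 34.3 CPM in WT cells and at 71.7 and 68.9 CPM in Helz-null cells. Each Helz-null library was thus above each WT library, and the groups did not overlap for 70.6% of all genes in the authors' list. For TENM1 the replicates of a group lay closer together than the groups. TENM1 rests on 1406 to 4801 counts per library. Its log2FC of 1.09 (SE 0.048) is a 2.13-fold difference, and it ranged from 1.03 to 1.14 over the alternatives tried.

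TENM3 went the other way. It had 55.6 and 55.3 CPM in WT cells and 44.3 and 44.4 CPM in Helz-null cells, from 1831 to 3489 counts per library. The pairs of replicates were nearly identical and did not overlap between groups, as was the case for 70.6% of all genes in the authors' list. TENM3 fell with a log2FC of -0.32 (SE 0.046, adjusted p = 2.76e-07 in edgeR), a 1.25-fold decrease. It was not called when the test asked for a change of at least 1.2-fold (adjusted p = 0.35).

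TENM4 was scarce. It had 3.81 and 3.93 CPM in WT cells and 5.06 and 4.23 CPM in Helz-null cells. Both Helz-null values were above both WT values, and the groups did not overlap for 65.1% of all genes in the wider fit. For TENM4 the 2 Helz-null libraries lay farther apart than the nearer of them lay from WT. Its log2FC of 0.25 (95% interval -0.033 to 0.53) did not pass the test (adjusted p = 0.19 in edgeR in the wider fit). It was 0.13 without Helz-null replicate 1 and 0.39 without Helz-null replicate 2, and was not called in either case (adjusted p = 0.67 and 0.13 in edgeR).

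TENM2 was close to the limit of detection. It had 11 and 6 counts in WT cells and 2 and 1 counts in Helz-null cells, where a floor of 3 counts corresponds to between 0.043 and 0.073 CPM. Both Helz-null libraries lay under that floor. With the libraries of a group pooled, its level in Helz-null cells was 0.165 of that in WT cells. The exact 95% interval of this ratio, 0.031 to 0.57, covers counting error only. A fit over all 20904 genes with at least 1 count gave an adjusted p of 0.14 in edgeR.

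FLRT1 was the FLRT that rose. Its values were 1.67 and 1.78 CPM in WT cells and 2.61 and 3.63 CPM in Helz-null cells, from 73 to 253 counts per library. The groups did not overlap, as was the case for 65.1% of all genes in the wider fit, and the 2 Helz-null libraries differed more from each other than the WT libraries did. The log2FC was 0.88 (SE 0.19, adjusted p = 0.00046 in edgeR), a 1.85-fold difference. This call rested on Helz-null replicate 2, without which the log2FC was 0.60 (adjusted p = 0.087), and DESeq2 did not make it (log2FC 0.87, adjusted p = 0.0072). It was also lost when a change of at least 1.2-fold was asked for (adjusted p = 0.0075 in edgeR). Over all alternatives the adjusted p of FLRT1 ranged from 5.04e-06 to 0.087.

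The host gene of FLRT1 was measured separately. MACROD1, a mono-ADP-ribosylhydrolase, had 15.7 and 14.2 CPM in WT and 16.2 and 18.7 CPM in Helz-null cells. Its log2FC of 0.22 (SE 0.080) did not pass the test (adjusted p = 0.023 in edgeR). Whether the counting used strand is not given in the sources used here, so reads of FLRT1 and unspliced reads of MACROD1 cannot be told apart.

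FLRT3 was the most abundant FLRT. It had 6.67 and 6.71 CPM in WT and 5.59 and 5.18 CPM in Helz-null cells, from 231 to 419 counts per library. Both Helz-null libraries were below both WT libraries, and the groups did not overlap for 65.1% of all genes in the wider fit. The FLRT3 log2FC of -0.32 (95% interval -0.55 to -0.094) did not pass the threshold (adjusted p = 0.030 in edgeR). MACROD2, the host of FLRT3, had between 0.51 and 0.73 CPM in the 4 libraries, and its groups overlapped.

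FLRT2 had 13 and 15 counts in WT cells and 12 and 8 counts in Helz-null cells. In CPM these are 0.207 and 0.366 in WT and 0.290 and 0.115 in Helz-null cells, and the groups overlapped. The log2FC was -0.57, with a 95% interval from -1.69 to 0.55 (adjusted p = 0.48 in edgeR). A difference was not detectable at this depth. Without Helz-null replicate 2 the sign turned, with a log2FC of 0.079.

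**Figure D1:**
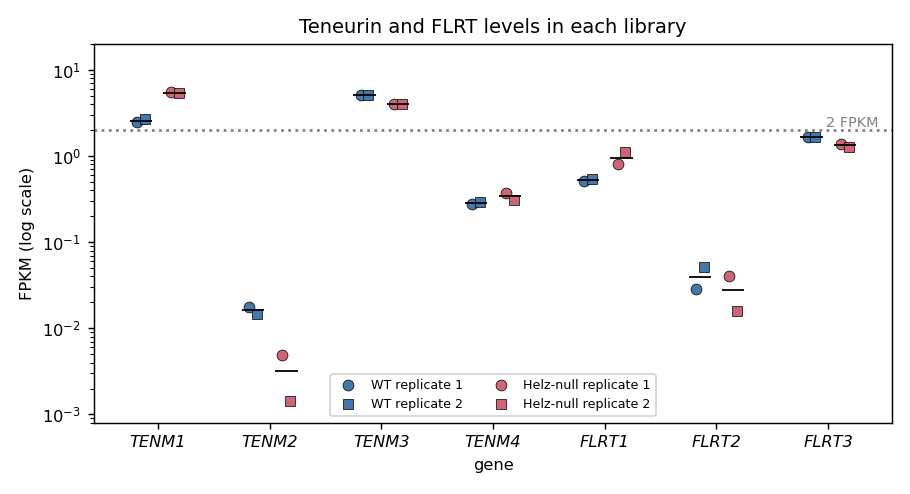
Levels of the 7 genes in FPKM on a log scale, 1 point per library (circles replicate 1, squares replicate 2) and a line at the mean of each group. TENM1, TENM4 and FLRT1 are higher and TENM2, TENM3 and FLRT3 are lower in both Helz-null libraries. TENM2 and FLRT2 lie under 0.1 FPKM in each library, and the dotted line marks 2 FPKM.

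Compared per length of gene, levels spanned more than 2 orders of magnitude. In WT cells the order in FPKM was TENM3 with 5.09 ± 0.014, TENM1 with 2.56 ± 0.13, FLRT3 with 1.66 ± 0.0061, FLRT1 with 0.532 ± 0.024, TENM4 with 0.285 ± 0.0063, FLRT2 with 0.040 ± 0.016 and TENM2 with 0.016 ± 0.0021 (SD, n = 2 libraries). In no case did the libraries of neighbours in this order overlap. In Helz-null cells TENM1 stood first with 5.45 ± 0.16 FPKM and TENM3 second with 4.07 ± 0.0045 FPKM (SD, n = 2), and the remaining genes kept their places. There, too, neighbours did not overlap, although FLRT3 at 1.29 to 1.39 FPKM and FLRT1 at 0.805 to 1.12 FPKM came close to each other. FPKM use the gene width deposited with the counts. For FLRT2 that width is 7179 bases, and the canonical transcript of the annotation used here is 33681 bases long, so its level per length depends on the gene model.

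The exchange of first place can be read within each library, where scaling between libraries plays no part. The ratio of TENM1 to TENM3 in FPKM was 0.484 and 0.524 in WT cells, and 1.37 and 1.31 in Helz-null cells. TENM1 made up 31.4% and 33.1% of the summed teneurin FPKM in WT cells, against 55.6% and 54.9% in Helz-null cells. TENM3 gave 64.8% and 63.1% in WT against 40.6% and 41.9% in Helz-null cells. TENM4 remained a minor member, at 3.21% to 3.73% in all 4 libraries. The summed teneurin FPKM were 7.87 and 8.04 in WT and 10.01 and 9.73 in Helz-null cells.

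Among the FLRTs the sum differed little. It was 2.20 and 2.27 FPKM in WT and 2.23 and 2.42 FPKM in Helz-null cells, and the groups overlapped. The makeup shifted from FLRT3 towards FLRT1. FLRT3 held 75.3% and 73.6% of the summed FLRT FPKM in WT and 62.2% and 53.2% in Helz-null cells. The ratio of FLRT1 to FLRT3 was 0.311 and 0.329 in WT cells, and 0.579 and 0.869 in Helz-null cells, where the replicates differed most.

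**Figure D2:**
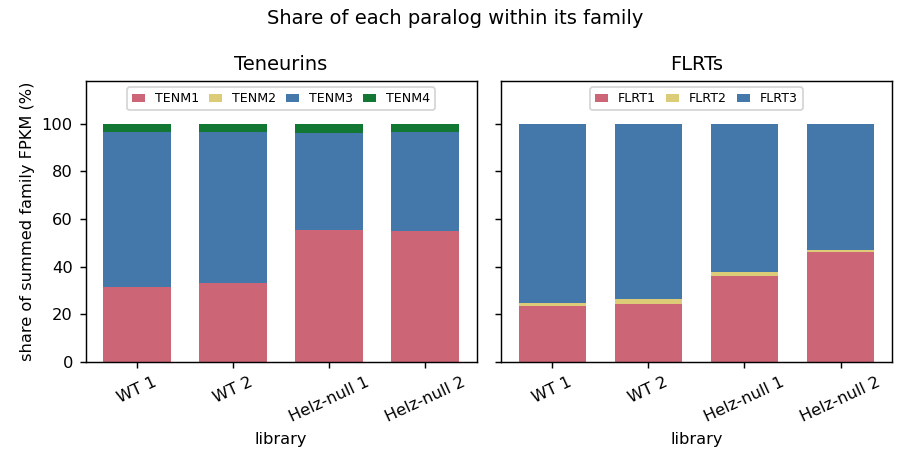
Share of each paralog in the summed FPKM of its family, in percent, for the teneurins (left) and the FLRTs (right), 1 bar per library. TENM1 goes from 31.4% and 33.1% in WT to 55.6% and 54.9% in Helz-null libraries, and FLRT1 from 23.4% and 24.2% to 36.0% and 46.2%.

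The position of the genes was not used to choose them, and the change of neighbouring genes was compared with that of each member. For each, the 10 tested genes on either side on the same chromosome were taken. The neighbours of TENM3 were all lower in Helz-null cells. Of these 20 genes, 18 were called down and 0 up at an FDR under 0.005 in edgeR, and their median log2FC was -0.52, with a range from -0.76 to -0.22. The log2FC of TENM3, -0.32, lies inside this range and is 0.20 above the median of its neighbours. At an FDR under 0.005, 15.5% of all genes in the authors' list were called down.

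TENM1 was set beside its surroundings in the same way. Its 20 neighbours had a median log2FC of 0.018, with 3 called up and 1 called down, and none reached the log2FC of TENM1. TENM1 was picked as an up-regulated transcript from this same comparison, so its lead over them is no separate result. The gene next to it, STAG2, which codes for a cohesin subunit, was among those that rose, from 394.1 and 393.5 CPM to 592.6 and 583.5 CPM (log2FC 0.58, SE 0.027, adjusted p = 2.26e-20 in edgeR). XIAP, an inhibitor of caspases on the far side of STAG2, fell from 110.4 and 114.5 CPM to 87.1 and 85.5 CPM (log2FC -0.38, adjusted p = 1.67e-11 in edgeR). STAG2 and TENM1 lie on opposite strands, and their annotated exons share 241 bases, 1.78% of the exon bases of TENM1. Reads from these bases cannot be assigned to either gene without strand. The RT-qPCR product does not include them.

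For the remaining members the median of the neighbours was near 0. Neighbours had a median log2FC of 0.016 for FLRT1, -0.021 for FLRT3, -0.048 for FLRT2, 0.062 for TENM4 and -0.012 for TENM2. The log2FC values of the 20 neighbours, called or not, ran from -0.59 to 0.32 around FLRT3, where 4 were called up and 2 down, and from -0.26 to 0.59 around TENM2, where 2 were called up and 3 down. The value of 0.59 around TENM2 did not pass the test. Around FLRT1 2 were called up and 2 down, around TENM4 2 up and 1 down, and around FLRT2 0 up and 4 down. FLRT1 exceeded each of its 20 neighbours, whose highest log2FC was 0.38. With the median of the neighbours subtracted, the log2FC was 1.07 for TENM1, 0.87 for FLRT1, 0.20 for TENM3, 0.19 for TENM4, -0.30 for FLRT3 and -0.52 for FLRT2. The direction of TENM3 was the only one of the 6 to turn.

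**Figure D3:**
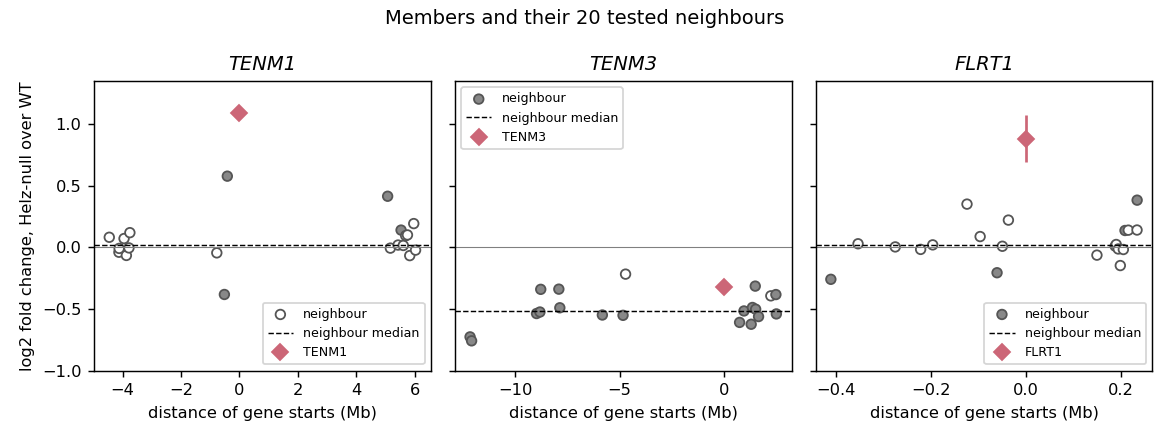
Log2 fold change of TENM1, TENM3 and FLRT1 (diamonds, bars are standard errors) and of their 20 tested neighbours (circles, filled where called at an FDR under 0.005) against the distance between gene starts in Mb, with a dashed line at the median of the neighbours. TENM1 and FLRT1 lie above their neighbours, while TENM3 lies among neighbours that are all below 0.

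The receptors and processing enzymes of the family were described from a list of 19 genes, 15 of which were in the authors' gene list. In edgeR 5 of them were up-regulated, 4 were down-regulated and 6 were not called, against 13.9% up and 15.5% down among all genes tested. Their median log2FC was 0.091, against -0.00091 over all genes. The up-regulated genes changed by 0.13 to 0.32 on the log2 scale. Their number fell to 0 for a change of at least 1.2-fold, to 1 with DESeq2 and to 1 without WT replicate 1, and it was 2 without either of the Helz-null replicates.

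Latrophilins are the receptors that teneurins and FLRTs have in common. Per length of gene, ADGRL2 had 17.2 to 17.9 FPKM in the 4 libraries, ADGRL1 11.6 to 14.7 FPKM and ADGRL3 1.81 to 2.27 FPKM, beside 4.07 to 5.10 FPKM for TENM3. ADGRL1 rose from 91.5 and 92.3 CPM in WT to 115.8 and 113.7 CPM in Helz-null cells (log2FC 0.32, SE 0.035, adjusted p = 7.87e-10 in edgeR). It was called in 12 of 13 alternatives. ADGRL3 had 23.2 and 25.5 CPM in WT and 28.8 and 29.1 CPM in Helz-null cells (log2FC 0.26, SE 0.062, adjusted p = 0.00090 in edgeR). Its call was lost with DESeq2, for a change of at least 1.2-fold, without WT replicate 1 and without Helz-null replicate 2. ADGRL2 was not called, with a log2FC of -0.023 and a 95% interval from -0.091 to 0.045.

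Of the UNC5 receptors, through which netrins and FLRTs repel migrating cells and axons, UNC5B was called up. It went from 84.6 and 87.4 CPM to 97.3 and 92.9 CPM (log2FC 0.14, SE 0.037, adjusted p = 0.0016 in edgeR), and this call was lost with DESeq2, for a change of at least 1.2-fold, and without WT replicate 1 or Helz-null replicate 1. UNC5A, tested in the wider fit only, had 2.04 and 1.49 CPM in WT and 3.29 and 2.64 CPM in Helz-null cells. Its log2FC of 0.70 missed the threshold (adjusted p = 0.0054 in edgeR). UNC5C was not called, with a log2FC of 0.091 and a 95% interval from -0.042 to 0.22. UNC5D had 2 to 4 counts per library.

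FGF receptors and ROBO1, a receptor for SLIT ligands, differed by small amounts. FGFR1 was called up with a log2FC of 0.13 (SE 0.036, adjusted p = 0.0028 in edgeR), and it was called in 6 of 13 alternatives. FGFR2, FGFR3 and ROBO1 were not called, with log2FC values of 0.12, 0.11 and 0.057.

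Other partners of the teneurins were lower or level. DAG1, the precursor of dystroglycan, a receptor for laminin, fell from 184.8 and 191.8 CPM to 147.1 and 145.9 CPM (log2FC -0.36, SE 0.032, adjusted p = 2.68e-12 in edgeR). HINT1, a nucleotide hydrolase that binds the teneurin-1 intracellular domain, fell with a log2FC of -0.16 (adjusted p = 2.09e-05 in edgeR). MBD1, a methyl-CpG binding protein, was not called (log2FC -0.0053, 95% interval -0.096 to 0.086).

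Proprotein convertases, which cleave teneurins on their way to the cell surface, were split. FURIN fell from 82.8 and 84.5 CPM to 63.7 and 62.5 CPM (log2FC -0.41, SE 0.040, adjusted p = 3.54e-11 in edgeR), and the call was kept in 13 of 13 alternatives. PCSK6 fell from 78.1 and 79.4 CPM to 61.4 and 60.0 CPM (log2FC -0.38, adjusted p = 4.50e-10 in edgeR). PCSK7 had a log2FC of 0.17 and was called in 5 of 13 alternatives only. PCSK5 rose in the wider fit (log2FC 0.27, adjusted p = 0.0028 in edgeR).

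The down-regulated partners were set beside their neighbours in the same way. FURIN and PCSK6 lie on chromosome 15, and of the 20 tested neighbours of FURIN 15 were called down, with a median log2FC of -0.31. PCSK6, near the end of the chromosome, had 13 tested neighbours, of which 9 were called down, with a median of -0.25. For DAG1, on chromosome 3, 13 of 20 neighbours were called down, with a median of -0.19. HINT1, on chromosome 5, had 2 of 20 neighbours called down and a median of -0.036.

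**Figure D4:**
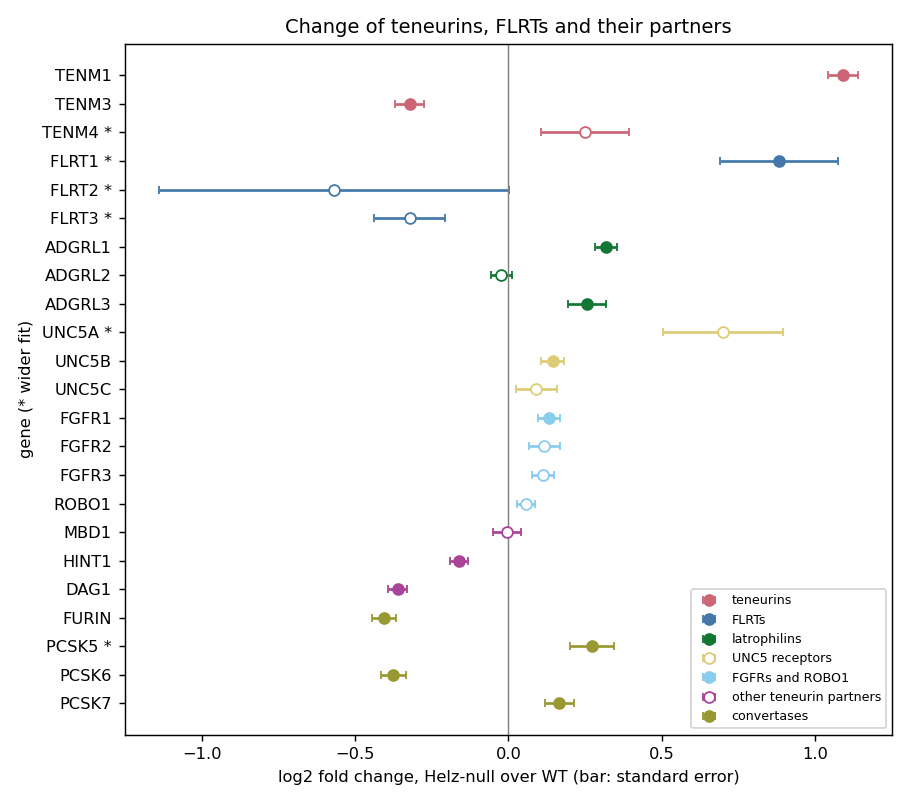
Log2 fold change in Helz-null over WT cells with its SE for tested teneurins, FLRTs and partner genes, coloured by role, filled where called at an FDR under 0.005; stars mark genes taken from the wider fit. TENM1 and FLRT1 have the highest values, 1.09 and 0.88, and FURIN, at -0.41, has the lowest among genes that were called.

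The genes most like TENM1 were sought among the tested genes by the Euclidean distance of log2 CPM over the 4 libraries, with each gene centred on its own mean. With 4 libraries in 2 groups, such a search finds genes with a similar fold change. The 5 nearest were ADNP2, SALL3, UTS2R, HLA-DRB1 and UGT3A2, at distances from 0.077 to 0.17. ADNP2, a zinc finger homeobox protein, had 71.5 and 73.2 CPM in WT and 158.7 and 158.0 CPM in Helz-null cells. ADNP2 and SALL3 both lie on chromosome 18, at 77.9 and 76.7 Mb, and UTS2R on chromosome 17. HLA-DRB1 shares reads with closely related HLA genes, and its value is uncertain. None of the 5 is a teneurin, a FLRT or a gene of the partner list.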

How the data were processed

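The authors deposited read counts per gene without normalization. Bowtie2 had served to remove ribosomal RNA reads, TopHat2 to align the read pairs (hg19) and QuasR to count. Versions, annotation, strand and the counting of mates are not given in the sources used here. A second deposited table holds the authors' edgeR comparison (fold changes and mean CPM, both in log2, with p-values and FDR). Only its 10978 gene names were used.

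Counts were tested in R 4.3.3 with edgeR 4.0.16 (TMM, estimateDisp, glmQLFit, glmQLFTest, genotype only), with Benjamini-Hochberg adjustment over all genes of the fit and calls at an FDR under 0.005. DESeq2 1.42.0 was an alternative. FPKM were computed from counts and the deposited gene width. The biological coefficient of variation was 2.60% in the authors' list and 2.73% in the wider fit. P-values cover the spread between 2 libraries per group. In simulated data, 195 of 200 changed genes were called in the fit of 10978 genes and 194 of 200 in that of 16087 genes. The changed genes were drawn from well-counted genes only, with changes larger than that of TENM3. These shares therefore do not apply to members with few counts, such as TENM2 and FLRT2, or to changes as small as that of TENM3.

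Gene positions are those of GENCODE, GRCh37. Of the 10978 genes 10379 were matched by symbol, 505 by a RefSeq synonym, and 94 were not matched. Sequences came from the GENCODE transcripts and the primer list of the study. Identity between paralogs was computed on coding sequences. The members and lists were chosen with earlier results of these data known. Named genes were HELZ, the members, tested partner genes, genes overlapping a member, the 5 genes most like TENM1 and called synaptic adhesion genes. The values of 1 listed partner gene are not reported here. XIAP and the neighbours of partner genes were added after their values were seen. Python 3.11.15 with Biopython 1.88 and matplotlib 3.10.9 was used. Alternatives covered gene filters, scaling, tests, thinning, mates, a replicate block and single libraries left out.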

Additional observations from a re-analysis of the deposited data

How the results depend on the processing

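TENM1 and TENM3 kept their direction under each of 13 alternatives, as did TENM4, FLRT1 and FLRT3 under each of 12. Tested against a fold change of at least 1.2 with glmTreat, 217 genes of the authors' list were up and 318 down, and 266 and 421 in the wider fit. TENM3 (log2FC -0.32) and FLRT1 (0.88) were then not called, nor was FLRT1 with DESeq2 (0.87), and the cause was not tested. Partner genes called up numbered 0 with glmTreat, where 1 passed at an unadjusted p under 0.05, and 1 with DESeq2, and 1 partner gene was called down with glmTreat. With scaling by library size only, up-regulated genes made up 61.5% of calls in the authors' list against 47.3%, and 60.2% against 46.0% in the wider fit, and the members kept their calls.

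Leaving out each library in turn gave FLRT1 a log2FC between 0.60 and 1.07 and FLRT2 one between -1.24 and 0.079, the latter reversed without Helz-null replicate 2; the cause was not tested. Partner genes called up ranged from 1 to 5. Genes called in the authors' list ranged from 1027 to 1544 up and from 1180 to 1659 down. With the replicate number as a block, 1677 genes were up and 1841 down. No tested member and no partner gene of the authors' list changed its call. Replicates of the same number did not deviate together (correlation 0.034), so the number was not used as a pairing. TENM2 and FLRT2 rest on fewer than 20 counts per library, and depth limits both.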

Other observations

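Other adhesion proteins of the synapse were looked at as a list of 28 genes. Of the 8 in the authors' gene list, 5 were up-regulated and 1 was down-regulated in Helz-null cells, against 13.9% up and 15.5% down among all genes of that fit. The median log2FC of the 8 was 0.22. In the wider fit 19 were tested, of which 6 were up and 3 down, against 9.83% and 11.5% of all genes. LRRTM4, a leucine-rich repeat protein of the postsynaptic membrane, had 97 and 70 counts in the WT libraries and 0 counts in both Helz-null libraries. Against a floor of 3 counts per library it was at least 28.1-fold lower. LRRTM4 passed the filter of the wider fit through its WT counts alone, so its change is given as a description with no p-value. Its 20 tested neighbours had a median log2FC of -0.026. Its paralog LRRTM2 rose from 1.72 and 2.20 CPM to 3.39 and 2.95 CPM (log2FC 0.70, adjusted p = 0.0032 in edgeR).

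SLITRK3, a leucine-rich repeat protein known from inhibitory synapses, fell from 8.55 and 8.83 CPM to 5.54 and 5.81 CPM (log2FC -0.61, adjusted p = 2.71e-05 in edgeR). LRRC4B, a ligand of LAR-type receptor phosphatases, rose from 9.51 and 9.34 CPM to 15.5 and 16.3 CPM (log2FC 0.76, adjusted p = 1.63e-09 in edgeR). The remaining up-regulated genes, NLGN2, SLITRK5, CADM1 and PTPRF, changed by 0.18 to 0.28 on the log2 scale. SLITRK5 lies among 20 neighbours with a median log2FC of 0.17, of which 12 were called up. PTPRS, a receptor phosphatase, was lower by a log2FC of -0.16 (adjusted p = 0.00058 in edgeR).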
